A study of Homo sapiens with 12 samples.

Results

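Antisense RNA genes were analysed together with the genes they are named after. The set was chosen by symbol and by read count: rows whose symbol ends in -AS plus 1 digit, with a mean raw count of at least 30 over the 12 libraries. The rule selected 225 of 719 such rows, in tables of 25369 genes, and all 225 passed the low-count filter of the test. Because the count rule used the same libraries as the comparisons, a gene near the minimum could enter through the line where it was high. INTS6-AS1, MLK7-AS1 and YTHDF3-AS1 lay just inside it, with mean counts of 30.75, 30.67 and 30.25. MLLT4-AS1 and CSNK1G2-AS1 lay just outside it, at 29.5 and 29.17. In the control line alone, 21 of the 225 averaged under 30 counts. The sense gene was the row with the same symbol without the suffix. It was present for 217 of the 225 antisense genes, as 213 distinct sense genes, and absent for 8.

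RNA with poly(A) tails was measured in U2OS cells, a human osteosarcoma line, that carried Tet-On inducible transgenes, with 4 lines and 3 biological replicates each. The WT line expressed HA-tagged wild-type E2F1. The R109K line expressed HA-tagged E2F1 in which 1 arginine was changed to lysine. The KK line expressed the R111/113K form, in which the next 2 arginines were changed to lysine, and pTRE carried the empty vector. Every line, pTRE included, received doxycycline at 1 ug per ml for 24 hours, was grown under G418 and hygromycin B, and kept its own E2F1 gene. Each condition was therefore 1 stable line, and a difference between conditions cannot be told apart from a difference between lines. Whether a line was a clone or a pool was not given in the sources used here. The mesenchymal markers RUNX2 (7.78 to 18.8 counts scaled to library size, CPM), COL1A1 (541 to 4079) and VIM (1150 to 1793) and the epithelial keratins KRT8 (168 to 578) and KRT18 (185 to 332) were read in every library. EPCAM was lower, at 9.88 to 14.7 CPM, with CDH1 at 0.509 to 1.44 and ALPL at 0.321 to 2.61. SP7, BGLAP, COL1A2, KRT19, PECAM1 and CD3E were at 0 in at least 1 library and under 0.6 CPM in all, and PTPRC stayed between 0.205 and 0.711.

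Antisense RNA genes are transcribed from the DNA strand opposite a neighbouring or overlapping gene, and most encode no protein. Some start head to head with the sense gene, from the same open promoter region, and the members of such divergent pairs often share regulatory DNA. Others start inside or beyond the sense gene and run back across it, through exons or introns. E2F1 is a transcription factor that binds promoters of cell cycle and other genes. The enzyme PRMT1 methylates the arginine changed in R109K and PRMT5 those changed in KK, and lysine in their place cannot be methylated by them.

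Of the 225 genes, 220 were placed on GRCh37 (the assembly also called hg19) with GENCODE, and 208 of them were annotated as lncRNA and 7 as protein coding. The annotation gives 56 of them another name, and 36 of those names now end in -DT, for divergent transcript. The 5' ends of 85 antisense genes lay within 1000 bases of the 5' end of the sense gene on the opposite strand. These 85 are called same-start pairs here. A further 100 started farther away and overlapped the sense gene with exons of both. Another 23 overlapped it through introns only. The last 3 with a sense row lay elsewhere, 6 could not be placed as pairs, and 8 had no sense row. In the pairs with overlapping exons, the median overlap was 505 exon bases, or 11% of the exon bases of the antisense gene. The library kit marks strand, but the strand setting of the counting was not given in the sources used here. Whether reads from an antisense gene and from the sense gene over such bases were told apart is therefore not known. The same holds for unspliced sense RNA over antisense exons that lie in sense introns, and no value below separates them. Reads labelled ambiguous, 0.866 to 2.16% of a library, were in no gene row.

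The promoters of 4 antisense genes are shown because the results turn on them: the 2 same-start genes with the largest rises in WT, the same-start gene with the largest fall, and a gene called higher whose promoter holds an E2F consensus. Each runs 5' to 3' on the strand of the antisense gene, from 250 bases before to 50 bases after its RefSeq start, on GRCh38.p14. Capitals mark a match to TTTCCCGC, TTTGGCGC, TTTCGCGC or TTTGCCGC, searched on both strands. They are spellings of 1 consensus, and matches to TTTGGCGC or TTTCGCGC on opposite strands can share their last bases.
ST3GAL6-AS1, chr3:98732602-98732901, minus strand: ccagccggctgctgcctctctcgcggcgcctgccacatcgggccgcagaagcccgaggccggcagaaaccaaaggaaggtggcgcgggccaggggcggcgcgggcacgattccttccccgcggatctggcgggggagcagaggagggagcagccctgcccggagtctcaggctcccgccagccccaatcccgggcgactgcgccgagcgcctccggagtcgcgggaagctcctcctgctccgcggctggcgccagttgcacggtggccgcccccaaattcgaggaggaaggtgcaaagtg
EPB41L4A-AS2, chr5:112419333-112419632, plus strand: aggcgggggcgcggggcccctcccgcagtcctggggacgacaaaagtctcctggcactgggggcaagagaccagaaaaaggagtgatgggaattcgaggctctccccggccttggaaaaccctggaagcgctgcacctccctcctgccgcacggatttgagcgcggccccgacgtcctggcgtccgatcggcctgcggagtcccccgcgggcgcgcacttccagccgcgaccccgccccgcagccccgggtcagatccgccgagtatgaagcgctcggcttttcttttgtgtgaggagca
MEIS1-AS3, chr2:66433421-66433720, minus strand: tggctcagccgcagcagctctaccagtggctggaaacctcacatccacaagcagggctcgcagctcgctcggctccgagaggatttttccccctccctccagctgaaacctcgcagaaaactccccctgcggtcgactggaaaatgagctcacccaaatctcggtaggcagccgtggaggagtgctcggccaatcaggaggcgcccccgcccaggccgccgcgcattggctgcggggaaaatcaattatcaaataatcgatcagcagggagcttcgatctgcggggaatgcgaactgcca
DNAJC9-AS1, chr10:73247117-73247416, plus strand: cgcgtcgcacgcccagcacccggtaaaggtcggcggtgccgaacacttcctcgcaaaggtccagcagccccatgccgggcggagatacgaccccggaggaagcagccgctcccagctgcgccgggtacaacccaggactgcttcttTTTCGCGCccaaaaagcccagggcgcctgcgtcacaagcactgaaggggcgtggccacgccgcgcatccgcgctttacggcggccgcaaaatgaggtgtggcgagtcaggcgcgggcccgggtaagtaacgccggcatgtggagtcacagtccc

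The windows of ST3GAL6-AS1, EPB41L4A-AS2 and MEIS1-AS3 held none of the 4 spellings, and their GC contents were 72.7%, 68.0% and 60.3%. The DNAJC9-AS1 window held 1 match, 104 bases before the start, and its RefSeq start lies 89 bases from that of DNAJC9 on the opposite strand. The DNAJC9 window also held 1 match, and the bases of these windows can overlap. The MEIS1-AS3 start in RefSeq lies 1454 bases from that of MEIS1, against 18 bases in the GENCODE models. RefSeq promoters were found for 175 of the 225 antisense genes. A match was present in 6 of the 175 (3.43%), against 908 of the 27305 promoters of all genes (3.33%). It was present in 2 of the 18 genes called higher in any line (DNAJC9-AS1 and RASSF8-AS1), 1 of the 7 called lower and 3 of the 150 not called. A match is a run of letters and not a measured binding site.

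E2F1 itself was read first, as a check of the labels. It stood at 89.2, 82.9 and 101.5 CPM in the pTRE replicates, 2315, 1650 and 1469 in WT, 1283, 1260 and 932 in R109K, and 1360, 1478 and 1112 in KK. The log2 fold change against pTRE was 4.31 ± 0.20 (standard error) in WT (adjusted p = 3.62e-09), 3.67 ± 0.20 in R109K (adjusted p = 1.52e-08) and 3.85 ± 0.20 in KK (adjusted p = 4.75e-09). Reads from the transgene and from the cells' own gene were counted together.

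The second WT replicate stood apart from the other 11 libraries. Reads assigned to genes numbered 11500537 there and 21366887 to 31040903 elsewhere. Reads outside genes were 58.7% of its total, against 23.6 to 29.6% in the others. The 225 antisense genes took 0.252% of its gene reads, against 0.207 to 0.222% in the others. In 136 of the 225 (60.4%) it held the highest of the 3 WT values, as it did for 39.9% of all tested genes. Values of the WT comparison are therefore given with and without this replicate where it mattered. Medians, directions and class summaries without it were chosen after seeing the data.

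Antisense genes were expressed at low levels. Their mean raw count over the libraries ran from 30.25 to 7374.5 with a median of 96, and 114 of the 225 were under 100. The median of their mean CPM was 4.06. Levels were compared with the sense gene per kilobase of exon: the antisense gene was lower in 166 of 211 pairs, with a median log2 ratio of -2.10. This median was -2.49 in same-start pairs and -1.90 where exons overlap, but 0.04 in the 23 pairs that overlap through introns only. The difference between these classes was not tested.

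The comparison with pTRE asked which antisense genes changed when each form of E2F1 was induced. A gene was called when its Benjamini-Hochberg adjusted p, over the 16625 genes tested with edgeR, was under 0.01 and its change was greater than 2-fold. In WT, 23 of the 225 antisense genes were called higher and 6 lower (10.2% and 2.67%), where 7.89% and 3.93% of all tested genes were. In KK, 18 were higher and 7 lower (8.0% and 3.11%), where 7.01% and 3.90% of all genes were. In R109K, 15 were higher and 2 lower (6.67% and 0.889%), where 4.64% and 2.56% of all genes were. These shares lie near those of all genes, and the count rule itself favours genes that rose: of the 21 that averaged under 30 counts in pTRE, 11 were called higher in WT, 8 in KK and 7 in R109K, and none lower. The 11 were ST3GAL6-AS1, EPB41L4A-AS2, FZD10-AS1, ANO1-AS2, EPHA1-AS1, DLGAP1-AS5, SRGAP2-AS1, PROSER2-AS1, CFLAR-AS1, FEZF1-AS1 and HHIP-AS1. They met the count rule only through lines where they were higher, so their rises are given as a description, with no p. Among the other 204, 12 were called higher and 6 lower in WT, 10 and 7 in KK, and 8 and 2 in R109K. The median log2 fold change of the 225 was 0.02 in WT, -0.09 in KK and -0.05 in R109K, and that of all tested genes was 0.00, -0.01 and 0.00. In the bulk libraries, a change in the share of cells that express a gene and a change in RNA per cell cannot be told apart.

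In all, 36 antisense genes were called in at least 1 line, 15 of them in all 3 lines. Another 10 were called in WT alone, 6 in KK alone and 0 in R109K alone, with 3 in WT and KK, 1 in WT and R109K and 1 in KK and R109K. The 3 comparisons share the pTRE replicates. A call in 1 line and not in another is not a difference between them, and the lines are compared directly below. In every called gene the 3 replicates of the line lay outside the range of the 3 pTRE replicates. Neither this nor the split by line is given here for all tested genes, so neither can be called particular to antisense genes.

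**Figure D1:**
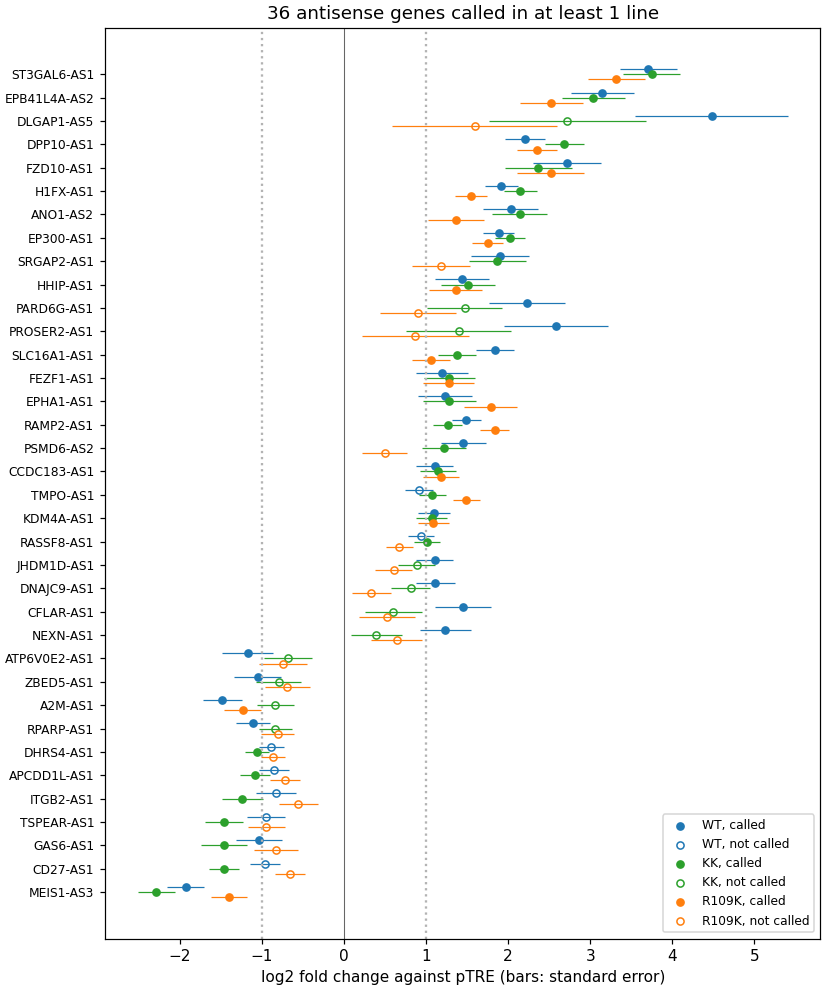
Log2 fold change against pTRE (horizontal axis) of the 36 antisense genes called in at least 1 line, ordered by the change in KK, with WT in blue, KK in green and R109K in orange. Bars are standard errors, filled points are called, open points are not, and dotted lines mark a 2-fold change. ST3GAL6-AS1 stands highest, with EPB41L4A-AS2 next, both filled in all 3 lines. MEIS1-AS3 stands lowest, and DLGAP1-AS5, filled in WT alone, has the longest bars.

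Same-start pairs held the antisense genes with the largest rises shared by the 3 lines. ST3GAL6-AS1 (chr3:98425080-98451601 on GRCh37, minus strand) starts 521 bases from ST3GAL6, which encodes a sialyltransferase, and its promoter is the first of those printed above. ST3GAL6-AS1 measured 0.124, 0.266 and 0.441 CPM in the pTRE replicates, 4.31, 3.61 and 3.25 in WT, 3.34, 3.16 and 2.01 in R109K and 4.29, 3.41 and 3.79 in KK. It was close to absent in pTRE, with 7.33 counts on average, and no replicate of an E2F1 line came near the pTRE values. Its log2 fold change was 3.71 ± 0.35 in WT, 3.32 ± 0.35 in R109K and 3.75 ± 0.35 in KK. ST3GAL6 itself moved less: 7.06, 6.16 and 6.58 CPM in pTRE, 8.98, 17.9 and 9.94 in WT, 8.72, 10.6 and 12.2 in R109K and 8.99, 10.9 and 12.9 in KK. Its changes of 0.87, 0.67 and 0.73 were under 2-fold, and the replicates did not overlap with pTRE. The log2 ratio of antisense to sense CPM, each plus 0.5 CPM, was higher than in pTRE by 1.67 in WT, 1.48 in R109K and 1.82 in KK, given as a description. The gene models of this pair share 174 exon bases.

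EPB41L4A-AS2 (chr5:111755280-111756675, plus strand), which GENCODE calls EPB41L4A-DT, starts 270 bases from EPB41L4A, a gene of the band 4.1 family of membrane-cytoskeleton linkers. EPB41L4A-AS2 measured 0.207, 0.19 and 0.404 CPM in the pTRE replicates, 2.85, 2.01 and 2.35 in WT, 2.11, 1.24 and 1.35 in R109K and 2.56, 2.59 and 1.58 in KK. The E2F1 lines were several-fold above pTRE in every replicate, over a pTRE mean of 7 counts. The log2 fold change was 3.15 ± 0.38 in WT, 2.52 ± 0.39 in R109K and 3.04 ± 0.38 in KK. Here the sense gene rose too. EPB41L4A measured 23.9, 21.5 and 19.5 CPM in the pTRE replicates, 62.9, 58.3 and 49.1 in WT, 39, 37.2 and 33.9 in R109K and 62, 49.3 and 54.4 in KK. EPB41L4A was called in WT (1.39 ± 0.13, adjusted p = 1.17e-06) and in KK (1.35 ± 0.13, adjusted p = 1.47e-06), and its change in R109K was 0.76 ± 0.13 (adjusted p = 0.000444), under 2-fold. No exons of the pair overlap. In R109K both genes stood at a lower level than in WT and KK, a difference from WT that was not called for either gene (adjusted p = 0.249 for EPB41L4A-AS2 and 0.0164 for EPB41L4A).

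FZD10-AS1 starts 203 bases from FZD10, a Frizzled receptor for Wnt ligands. FZD10-AS1 measured 0.165, 0.19 and 0.551 CPM in the pTRE replicates, 2.1, 2.65 and 1.48 in WT, 1.94, 1.42 and 1.97 in R109K and 1.73, 1.39 and 1.66 in KK. The antisense gene was near the counting limit in pTRE, at 8 counts on average. Its log2 fold change was 2.72 ± 0.41 in WT, 2.52 ± 0.41 in R109K and 2.37 ± 0.41 in KK. FZD10 was read at 0.496, 0.076 and 0.257 CPM in pTRE and at 1.13, 1.09 and 1.47 in R109K, where it was called (2.15 ± 0.47, adjusted p = 0.0031). In WT and KK it changed by 1.67 and 1.55 (adjusted p = 0.0134 and 0.0217) and did not pass.

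H1FX-AS1 (chr3:129034235-129045068, plus strand) starts 894 bases from H1FX, which encodes a linker histone variant, and the gene bodies share 345 exon bases. H1FX-AS1 measured 3.59, 4.33 and 6.1 CPM in the pTRE replicates, 18.1, 17 and 18 in WT, 13.2, 15.4 and 12.5 in R109K and 19.6, 26.3 and 16.6 in KK. Every E2F1 replicate lay well above the highest pTRE replicate. The log2 fold change was 1.92 ± 0.20 in WT (adjusted p = 2.97e-06), 1.54 ± 0.20 in R109K (adjusted p = 3.82e-05) and 2.15 ± 0.20 in KK (adjusted p = 9.61e-07). H1FX did not follow. H1FX measured 194, 181 and 263 CPM in the pTRE replicates, 178, 124 and 198 in WT, 237, 267 and 240.4 in R109K and 198, 276 and 182 in KK. Each E2F1 line overlapped with pTRE for the histone gene, and its changes were -0.35, 0.22 and 0.04, none of which passed. The antisense to sense ratio exceeded that in pTRE by 2.20, 1.24 and 2.01 in WT, R109K and KK with no overlap of replicates (exact two-sided permutation p = 0.1 each, the smallest that 3 against 3 samples allow).

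TMPO-AS1 starts 843 bases from TMPO, which encodes lamina-associated polypeptides of the nuclear envelope and lamina. TMPO-AS1 measured 3.3, 2.74 and 3.2 CPM in the pTRE replicates, 6.52, 5.46 and 5.42 in WT, 7.78, 10.4 and 7.86 in R109K and 6.68, 6.29 and 6.51 in KK. All E2F1 replicates exceeded the pTRE replicates, and the R109K replicates were the highest. It was called in R109K (1.49 ± 0.17, adjusted p = 1.1e-05) and KK (1.08 ± 0.17, adjusted p = 0.000142), and its change in WT, 0.92 ± 0.17 (adjusted p = 0.000579), was under 2-fold. TMPO changed by 0.63, 0.65 and 0.47 in WT, R109K and KK, each time under 2-fold. The only same-start gene called lower in all 3 lines was MEIS1-AS3.

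MEIS1-AS3 (chr2:66653867-66660602, minus strand) and MEIS1, a homeobox transcription factor, fell together. MEIS1-AS3 measured 17.3, 18.9 and 20.1 CPM in the pTRE replicates, 4.1, 3.85 and 6.58 in WT, 6.45, 5.85 and 9.09 in R109K and 4.5, 2.83 and 4.11 in KK. The antisense gene lost most of its reads in each E2F1 line, least in R109K, and no replicates overlapped with pTRE. Its log2 fold change was -1.93 ± 0.23 in WT (adjusted p = 9.18e-06), -1.40 ± 0.22 in R109K (adjusted p = 0.000201) and -2.29 ± 0.23 in KK (adjusted p = 2.03e-06). MEIS1 measured 16.2, 13.5 and 12.9 CPM in the pTRE replicates, 4.92, 5.3 and 5.28 in WT, 6.16, 5.52 and 8.11 in R109K and 3.81, 4.47 and 3.83 in KK. The fall of MEIS1 was -1.46 ± 0.17 in WT (adjusted p = 7.43e-06), -1.11 ± 0.16 in R109K (adjusted p = 0.000123) and -1.82 ± 0.17 in KK (adjusted p = 9.67e-07), all called. The ratio of the pair differed from pTRE by -0.51, -0.30 and -0.48 with overlapping replicates. The gene models share 19 exon bases around the starts.

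Other same-start genes were called lower in a single line. ZBED5-AS1 fell in WT (-1.05 ± 0.28, adjusted p = 0.00818) from 2.93, 3.76 and 3.23 to 1.53, 1.53 and 1.7 CPM, and ZBED5 changed by -0.45. Without WT replicate 2 its change was -1.04 and not called (adjusted p = 0.012). APCDD1L-AS1 fell in KK (-1.08 ± 0.18, adjusted p = 0.000282) from 16.3, 21.1 and 17.4 to 6.82, 11.3 and 7.9 CPM, and APCDD1L was called lower with it (-1.50 ± 0.37, adjusted p = 0.00476). In both genes the 2 other E2F1 lines also lay below pTRE on average without a call. Across the 85 same-start pairs, 4 antisense genes were called higher and 2 lower in WT (4.71% and 2.35%, against 7.89% and 3.93% of all tested genes), 5 and 2 in KK (5.88% and 2.35%, against 7.01% and 3.90%), and 5 and 1 in R109K (5.88% and 1.18%, against 4.64% and 2.56%). Without WT replicate 2 the WT counts were 4 and 1. Of those called higher, ST3GAL6-AS1, EPB41L4A-AS2 and FZD10-AS1 met the count rule only through lines where they were higher.

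**Figure D2:**
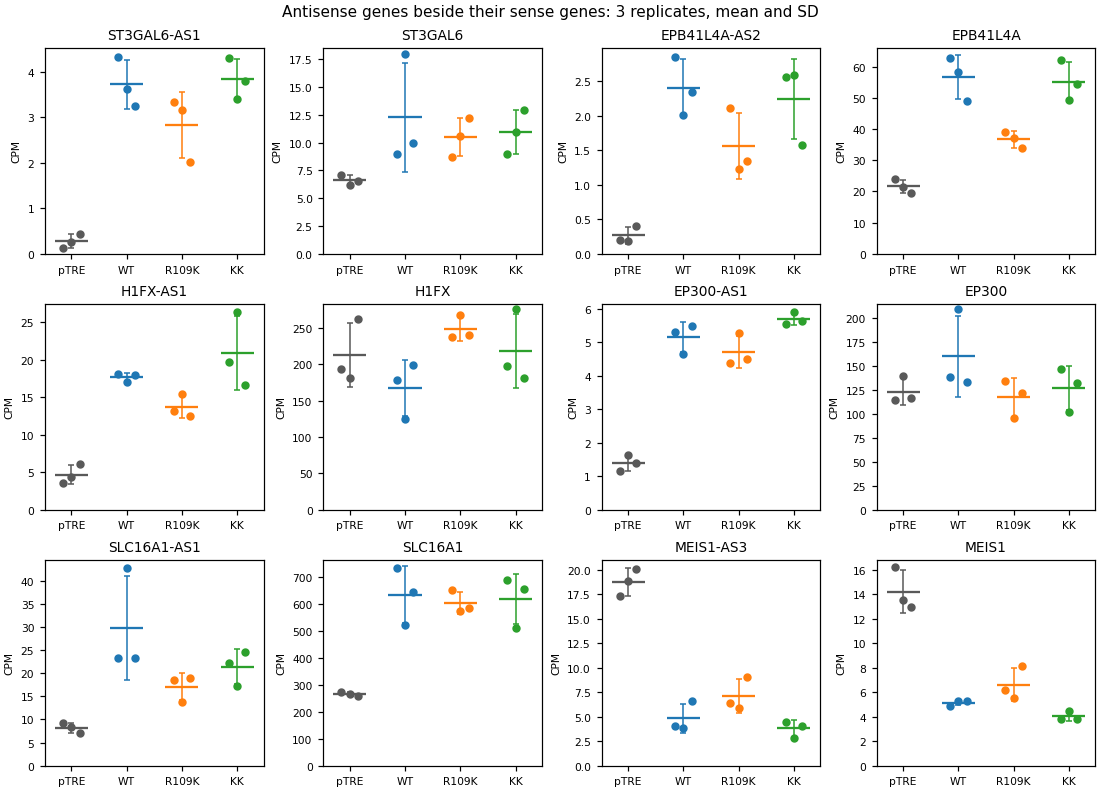
CPM (vertical axes, each from 0) of 6 antisense genes beside their sense genes in the 3 replicates of pTRE, WT, R109K and KK, with points for replicates, horizontal lines for means and vertical bars for SD. ST3GAL6-AS1, H1FX-AS1 and EP300-AS1 rise from pTRE to every E2F1 line while H1FX and EP300 overlap with pTRE, and MEIS1-AS3 and MEIS1 fall side by side.

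Among pairs with overlapping exons, SLC16A1-AS1 was the most abundant riser, beside SLC16A1, which encodes the monocarboxylate transporter that carries lactate and pyruvate. SLC16A1-AS1 measured 9.29, 8.28 and 7.09 CPM in the pTRE replicates, 23.2, 42.7 and 23.2 in WT, 18.6, 13.7 and 19 in R109K and 22.3, 17.2 and 24.6 in KK. WT replicate 2 was far above the other WT replicates, and all E2F1 replicates exceeded pTRE. Its log2 fold change was 1.84 ± 0.23 in WT (adjusted p = 1.94e-05), 1.06 ± 0.23 in R109K (adjusted p = 0.00283) and 1.38 ± 0.23 in KK (adjusted p = 0.00025), and 1.50 in WT without replicate 2. SLC16A1 measured 273, 267 and 258 CPM in the pTRE replicates, 736, 525 and 646 in WT, 653, 576 and 588 in R109K and 689, 512 and 658 in KK. The transporter gene rose by 1.26, 1.19 and 1.22 on the log2 scale, called in all 3 lines. The gene models share 231 exon bases, and the sense RNA is far more abundant in CPM. Whether reads over these bases were told apart is not known, because the strand setting of the counting was not given.

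HHIP-AS1 and RAMP2-AS1 rose with their sense genes as well. HHIP encodes a protein that binds hedgehog ligands, and RAMP2 a partner of the calcitonin-like receptor. HHIP-AS1 measured 1.4, 0.874 and 0.698 CPM in the pTRE replicates, 2.46, 2.57 and 3 in WT, 2.04, 3.52 and 2.05 in R109K and 3.36, 1.87 and 3.2 in KK. Every E2F1 replicate lay above pTRE, and the log2 fold changes were 1.44, 1.36 and 1.51 in WT, R109K and KK. HHIP rose by 1.55, 1.13 and 1.73, called in all 3. RAMP2-AS1 measured 2.6, 2.47 and 2.83 CPM in the pTRE replicates, 6.23, 8.35 and 7.73 in WT, 10.8, 8.5 and 8.93 in R109K and 6.33, 5.47 and 7.15 in KK. RAMP2-AS1 was highest in R109K. Its changes were 1.49 ± 0.18 in WT (adjusted p = 1.09e-05), 1.83 ± 0.17 in R109K (adjusted p = 2.32e-06) and 1.26 ± 0.18 in KK (adjusted p = 5.04e-05). RAMP2 was called in WT (1.04) and R109K (1.45), and its change of 0.98 in KK did not pass.

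KDM4A-AS1 moved apart from its sense gene, which encodes a histone lysine demethylase. KDM4A-AS1 measured 3.51, 3.12 and 3.49 CPM in the pTRE replicates, 5.98, 9.23 and 6.76 in WT, 6.13, 8.1 and 7.33 in R109K and 6.12, 7.06 and 8.05 in KK. All E2F1 replicates exceeded the pTRE replicates by a similar amount. The changes were 1.10 ± 0.19 in WT (adjusted p = 0.00036), 1.09 ± 0.19 in R109K (adjusted p = 0.000521) and 1.07 ± 0.19 in KK (adjusted p = 0.000438). KDM4A measured 86.6, 107 and 99.5 CPM in the pTRE replicates, 59.3, 72.4 and 69.5 in WT, 73.3, 64.9 and 73 in R109K and 67.6, 55.6 and 67.6 in KK. KDM4A was lower in every replicate of every E2F1 line than in pTRE. Its changes of -0.55, -0.47 and -0.62 (adjusted p = 0.00272, 0.00933 and 0.00107) were under 2-fold and so not called. The antisense to sense ratio exceeded that in pTRE by 1.54 in WT, 1.45 in R109K and 1.58 in KK with no overlap (exact permutation p = 0.1 each). Without WT replicate 2 the WT change of KDM4A-AS1 was 0.92, under 2-fold.

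CCDC183-AS1 and FEZF1-AS1 were the other exon-overlapping genes called higher in all 3 lines. CCDC183-AS1 rose from 1.96 ± 0.262 CPM (SD, n = 3) in pTRE to 4.23 ± 0.475 in WT, 4.43 ± 0.673 in R109K and 4.32 ± 1.06 in KK. FEZF1-AS1, beside a zinc finger transcription factor gene, rose from 0.77 ± 0.193 to 1.72 ± 0.615, 1.87 ± 0.145 and 1.88 ± 0.259 CPM. Neither CCDC183 nor FEZF1 was called in any line. PSMD6-AS2, beside a gene for a proteasome regulatory subunit, was called in WT (1.46 ± 0.27, adjusted p = 0.000557) and KK (1.22 ± 0.27, adjusted p = 0.00216). Its replicates were 2.73, 2.81 and 2.24 CPM in pTRE, 6.8, 10.1 and 4.81 in WT, 4.12, 2.62 and 4.22 in R109K and 7.02, 4.85 and 6.16 in KK. R109K overlapped with pTRE, and PSMD6 changed by -0.20, 0.03 and 0.05. RASSF8-AS1 was called in KK alone (1.01 ± 0.16, adjusted p = 0.000142), with RASSF8, a Ras association domain gene, at 0.91.

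PROSER2-AS1, CFLAR-AS1 and NEXN-AS1 were called in WT alone and were all highest in WT replicate 2. Their WT replicates measured 2.1, 6.67 and 0.903 CPM, 2.24, 4.26 and 1.7 CPM and 2.28, 5.54 and 2.6 CPM. The pTRE replicates of the 3 genes were 0.744, 0.608 and 0.184 CPM, 1.03, 0.798 and 1.07 CPM and 1.4, 1.44 and 1.43 CPM. The WT changes of 2.58, 1.45 and 1.23 became 1.56, 1.03 and 0.77 without replicate 2, and the first and the last were then no longer called. CFLAR, which encodes the caspase-8 inhibitor FLIP, and NEXN, which encodes an actin-binding protein, did not change in WT beyond their spread (0.02 ± 0.15, adjusted p = 0.912, and 0.12 ± 0.22, adjusted p = 0.68).

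A2M-AS1 was the exon-overlapping gene with the largest fall in WT, and it overlaps A2M, the gene of the protease inhibitor alpha-2-macroglobulin, by 561 exon bases. A2M-AS1 measured 3.3, 3.04 and 3.23 CPM in the pTRE replicates, 1.14, 0.964 and 1.26 in WT, 1.2, 1.27 and 1.6 in R109K and 1.66, 1.68 and 2.01 in KK. Every E2F1 replicate lay below the pTRE replicates. It was called lower in WT (-1.48 ± 0.24, adjusted p = 0.000174) and R109K (-1.24 ± 0.23, adjusted p = 0.00086), and its change in KK was -0.84 ± 0.23 (adjusted p = 0.00892), under 2-fold. A2M measured 0.62, 1.33 and 1.25 CPM in the pTRE replicates, 1.64, 2.89 and 2.35 in WT, 1.33, 1.49 and 1.35 in R109K and 1.83, 2.5 and 4.97 in KK. A2M went the other way and was called higher in KK (1.53 ± 0.38, adjusted p = 0.00512), with changes of 1.07 in WT and 0.37 in R109K that did not pass. The antisense to sense ratio differed from pTRE by -2.03 in WT, -1.30 in R109K and -1.83 in KK without overlap of replicates (exact permutation p = 0.1 each).

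GAS6-AS1 fell in WT (-1.04 ± 0.28, adjusted p = 0.0076) and KK (-1.46 ± 0.28, adjusted p = 0.000749), from 7.27, 8.09 and 9.99 CPM in pTRE to 3.17, 4.18 and 5.02 in WT and 1.76, 3.51 and 3.99 in KK. GAS6, the gene of a ligand of the TAM receptor kinases, changed by -0.42 and -0.36 with replicates that overlapped pTRE. Without WT replicate 2 the WT change of GAS6-AS1 was -1.05 and not called (adjusted p = 0.011). ATP6V0E2-AS1, beside a vacuolar proton pump subunit gene, fell in WT alone (-1.17 ± 0.31, adjusted p = 0.00717). In KK alone, 4 exon-overlapping genes were called lower. CD27-AS1 fell from 15.7, 14.8 and 15.3 to 5.02, 5.47 and 6.08 CPM (-1.47 ± 0.19, adjusted p = 2.13e-05), and CD27, a lymphocyte receptor gene, was read at no more than 1.45 CPM in any library. TSPEAR-AS1 fell from 3.51, 4.29 and 4.11 to 1.42, 1.49 and 1.42 CPM (-1.46 ± 0.23, adjusted p = 0.000171) while TSPEAR did not change beyond its spread. DHRS4-AS1 fell from 16.9, 13.6 and 15.1 to 7.47, 7.97 and 6.4 CPM (-1.06 ± 0.15, adjusted p = 5.76e-05). ITGB2-AS1 fell from 2.15, 3.08 and 3.27 to 1.25, 1.2 and 1.14 CPM (-1.24 ± 0.25, adjusted p = 0.00108), and ITGB2, the beta-2 integrin chain gene, was called lower with it (-1.27 ± 0.24, adjusted p = 0.000696). In WT and R109K these 4 genes also had lower means than in pTRE, with log2 fold changes from -0.56 to -0.97. Without WT replicate 2, CD27-AS1 (-1.05) and TSPEAR-AS1 (-1.15) were called lower in WT as well. Over the 100 exon-overlapping antisense genes, 10 were called higher and 3 lower in WT, 8 and 5 in KK, and 6 and 1 in R109K, near the shares of all tested genes (7.89% and 3.93%, 7.01% and 3.90%, and 4.64% and 2.56%). Without WT replicate 2 the WT counts were 7 and 4. Of those called higher with all WT replicates, PROSER2-AS1, CFLAR-AS1, FEZF1-AS1 and HHIP-AS1 met the count rule only through lines where they were higher.

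In the 23 genes that overlap the sense gene through introns only, 6 were called higher in WT and 4 each in KK and R109K, and 0 lower. Of all tested genes, 7.89%, 7.01% and 4.64% were higher and 3.93%, 3.90% and 2.56% lower, shares at which under 1 of 23 would be lower. The class is small, ANO1-AS2, EPHA1-AS1 and DLGAP1-AS5 met the count rule only through the E2F1 lines, and without WT replicate 2 the WT count was 5 and the WT median moved from 0.40 to 0.08. DPP10-AS1 lies in DPP10, which encodes a partner of voltage-gated potassium channels. DPP10-AS1 measured 1.9, 1.41 and 1.25 CPM in the pTRE replicates, 7.59, 5.06 and 7.99 in WT, 7.33, 9.52 and 6.35 in R109K and 8.82, 11.7 and 8.76 in KK. The E2F1 lines stood well apart from pTRE. Its changes were 2.20 ± 0.24 in WT (adjusted p = 4.89e-06), 2.35 ± 0.24 in R109K (adjusted p = 4.29e-06) and 2.68 ± 0.24 in KK (adjusted p = 6.37e-07). DPP10 changed by 0.41, 0.75 and 0.78, under 2-fold in each line. The ratio exceeded that in pTRE by 1.50, 1.33 and 1.63 with no overlap (exact permutation p = 0.1 each).

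EP300-AS1 (chr22:41570595-41593512, minus strand) crosses the end of EP300, the gene of the p300 histone acetyltransferase. EP300-AS1 measured 1.16, 1.63 and 1.4 CPM in the pTRE replicates, 5.31, 4.66 and 5.49 in WT, 4.38, 5.27 and 4.5 in R109K and 5.54, 5.91 and 5.65 in KK. The replicates of each line agreed closely and lay far above pTRE. The log2 fold change was 1.89 ± 0.19 in WT (adjusted p = 2.04e-06), 1.75 ± 0.19 in R109K (adjusted p = 7.09e-06) and 2.02 ± 0.19 in KK (adjusted p = 9.38e-07). EP300 measured 114, 139 and 116 CPM in the pTRE replicates, 138, 209 and 133 in WT, 135, 95.2 and 121 in R109K and 146, 102 and 132 in KK. EP300 overlapped with pTRE in all 3 lines, with changes of 0.38, -0.07 and 0.04. The ratio exceeded that in pTRE by 1.23, 1.55 and 1.68 (exact permutation p = 0.1 each).

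ANO1-AS2, now named LINC02584, lies inside ANO1, the gene of a calcium-activated chloride channel, and both rose. ANO1-AS2 measured 0.496, 0.532 and 0.551 CPM in the pTRE replicates, 2.49, 1.77 and 2.17 in WT, 1.23, 1.67 and 1.19 in R109K and 2.11, 3.41 and 1.54 in KK. Its changes were 2.03 ± 0.34 in WT, 1.36 ± 0.34 in R109K and 2.14 ± 0.34 in KK. ANO1 measured 5.54, 6.12 and 6.43 CPM in the pTRE replicates, 49.6, 52.8 and 39.2 in WT, 28, 21.7 and 22.4 in R109K and 51.5, 40.5 and 41.3 in KK. ANO1 rose by more, 2.96, 1.99 and 2.88, all called, and R109K was lowest of the E2F1 lines for both genes. The antisense to sense ratio therefore differed from pTRE by -1.50, -1.05 and -1.36. EPHA1-AS1, beside an ephrin receptor gene that had too few reads to be tested, was called in all 3 lines and was highest in R109K. Its WT change was 1.23, and 1.22 and no longer called without WT replicate 2. EPHA1-AS1 measured 0.702, 0.418 and 0.808 CPM in the pTRE replicates, 1.35, 1.53 and 1.66 in WT, 2.04, 1.93 and 2.74 in R109K and 1.18, 1.49 and 2.05 in KK.

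The 2 other intronic genes called in WT had far higher values in replicate 2 and stayed called without it. DLGAP1-AS5, in the gene of a postsynaptic scaffold protein, measured 0.33, 0.19 and 0.11 CPM in pTRE and 1.35, 12.8 and 0.831 in WT. Its WT change of 4.48 ± 0.93 was the largest of all 225 and became 2.38 without replicate 2. In KK the change was 2.72 ± 0.95 and in R109K 1.59 ± 1.01, neither called. DLGAP1 rose in all 3 lines, by 1.71, 1.38 and 1.96. PARD6G-AS1, in a cell polarity gene, measured 1.16, 1.37 and 1.14 CPM in pTRE and 3.28, 12.1 and 2.64 in WT, and its change of 2.23 became 1.27.

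The remaining called genes had no sense row, no placement as a pair or lay far from the sense gene. JHDM1D-AS1, named KDM7A-DT in GENCODE after a histone demethylase gene, was higher in WT (1.10 ± 0.23, adjusted p = 0.00126), at 3.6, 3.45 and 4.05 against 1.86, 1.29 and 2.02 CPM in pTRE. RPARP-AS1 was lower in WT (-1.11 ± 0.21, adjusted p = 0.000568), at 5.34, 4.26 and 7.12 against 11.7, 11.3 and 13.7 CPM, and without WT replicate 2 its change was -0.97, under 2-fold. DNAJC9-AS1, beside a heat shock co-chaperone gene, was called in WT (1.11 ± 0.24, adjusted p = 0.0017) and its change was 0.92, under 2-fold, without WT replicate 2. Its WT replicates were 3.17, 4.26 and 2.57 CPM against 1.36, 1.75 and 1.43 CPM in pTRE, and DNAJC9 changed by 0.47. SRGAP2-AS1 was called in WT (1.91 ± 0.35) and KK (1.87 ± 0.35). SRGAP2 has near-identical copies on chromosome 1 that can share reads, so this pair is uncertain.

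Pairs called in the same direction were 7 in WT (6 higher, 1 lower), 7 in KK (4 higher, 3 lower) and 6 in R109K (5 higher, 1 lower). Pairs called in opposite directions were 0 in each line. The pairs called higher include those of HHIP-AS1 and ANO1-AS2 (in each line), EPB41L4A-AS2 (WT and KK), DLGAP1-AS5 (WT) and FZD10-AS1 (R109K). These antisense genes met the count rule only through lines where they were higher, so their part of the counts is a description. These counts rest on few pairs: without 1 replicate they ran from 4 to 8 in WT (4 without pTRE replicate 3), from 5 to 7 in KK and from 2 to 5 in R109K (2 without pTRE replicate 2 or 3, 3 without R109K replicate 2 or 3). More often only 1 gene of a pair was called. In WT, 15 antisense genes were called higher and 4 lower beside a tested sense gene that was not called. In 7 other pairs the sense gene was called higher, and in 4 lower, beside an antisense gene that was not. Pairs with the same sense gene count separately here. EPB41L4A, called higher in WT, was counted beside EPB41L4A-AS2, which was called, and again beside EPB41L4A-AS1, which was not. Of the 209 sense genes tested, 10 were called higher and 5 lower in WT, 11 and 6 in KK, and 8 and 3 in R109K. These are 4.78% and 2.39%, 5.26% and 2.87%, and 3.83% and 1.44%, where 7.89% and 3.93%, 7.01% and 3.90%, and 4.64% and 2.56% of all tested genes were called. Across the 213 pairs tested for both genes, Pearson's r between the log2 fold changes was 0.42 in WT, 0.47 in KK and 0.53 in R109K, and Spearman's rho was 0.36, 0.41 and 0.44. In the 85 same-start pairs r was 0.56, 0.62 and 0.66, and rho was 0.30, 0.42 and 0.48. In the 99 pairs with overlapping exons r was 0.28, 0.34 and 0.48, and in the 20 with introns only 0.40, 0.45 and 0.35. Between the E2F1 lines, where no antisense gene was called, r over the 213 pairs was 0.17 for R109K against WT, 0.09 for KK against WT and 0.34 for R109K against KK. These are descriptions over pairs that share the same 6 libraries in each comparison, and where exons overlap also part of the transcribed bases.

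**Figure D3:**
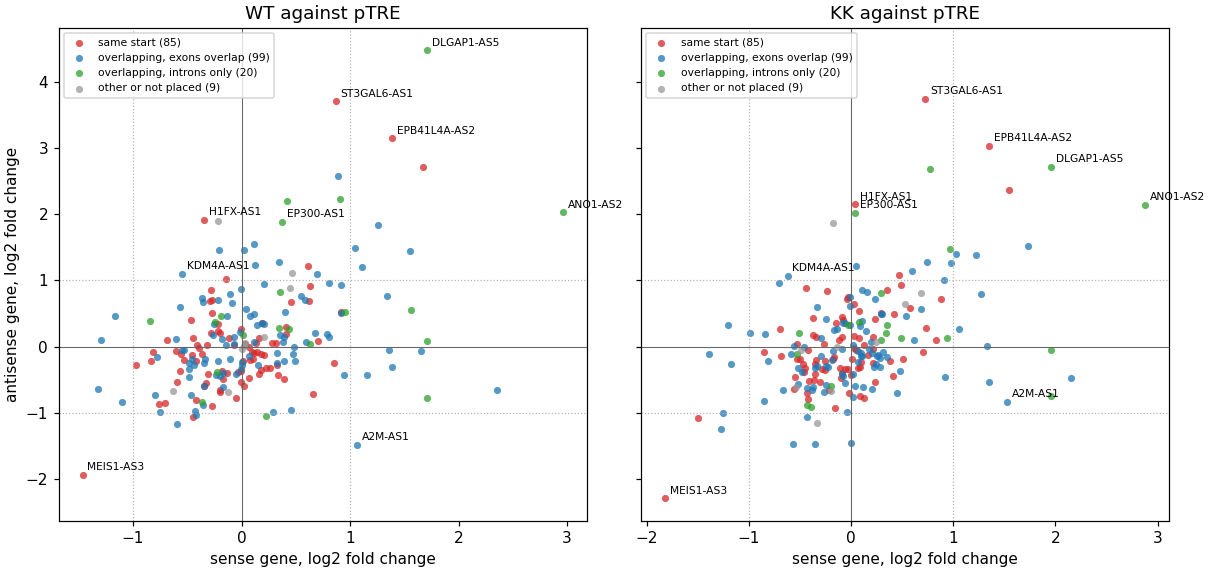
Log2 fold change against pTRE of the antisense gene (vertical axis) and of its sense gene (horizontal axis) in WT and in KK, 1 point per pair, coloured by how the pair is arranged, with dotted lines at a 2-fold change. EPB41L4A-AS2, ANO1-AS2 and DLGAP1-AS5 lie far out in the upper right and MEIS1-AS3 in the lower left, while H1FX-AS1, EP300-AS1 and KDM4A-AS1 rise over sense genes that change little or go down.

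A list of 24 antisense genes, picked because the sense gene acts in the cell cycle or DNA metabolism or because the RNA is well known, held 10 of the 225. TMPO-AS1 was called higher in KK and R109K, and the list had 0 other calls, with medians of 0.03, 0.13 and -0.06 in WT, KK and R109K. FGD5-AS1, the most abundant of all 225, measured 195, 186 and 175 CPM in pTRE, 348, 300.5 and 294 in WT, 358, 324 and 325 in R109K and 375, 276 and 316 in KK. Every E2F1 replicate was higher, with changes of 0.76 ± 0.13 in WT (adjusted p = 0.000243), 0.86 ± 0.13 in R109K (adjusted p = 0.000145) and 0.80 ± 0.13 in KK (adjusted p = 0.000165), all under 2-fold. FGD5, the gene of a guanine nucleotide exchange factor, was called in each line with 1.34, 1.08 and 1.27. OIP5-AS1 did not change beyond its spread (0.14, 0.10 and 0.27), while OIP5, the gene of a centromere assembly factor, changed by 0.81, 0.80 and 1.06 and was called in KK. MCM3AP-AS1, DDX11-AS1, TPT1-AS1, ZEB1-AS1, NNT-AS1 and NR2F2-AS1 had no call either, and their changes ran from -0.43 (NR2F2-AS1 in R109K) to 0.21 (MCM3AP-AS1 in WT).

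LRRC75A-AS1, BAIAP2-AS1 and TTC28-AS1 completed the 5 most abundant, with means over the 12 libraries of 197, 85.0 and 48.6 CPM, after FGD5-AS1 at 289 and just above OIP5-AS1 at 48.2. LRRC75A-AS1, which GENCODE names SNHG29, is a snoRNA host gene. LRRC75A-AS1 measured 235, 241 and 256 CPM in the pTRE replicates, 162, 113 and 188 in WT, 189, 234 and 221 in R109K and 159.8, 195 and 169.9 in KK. Every E2F1 replicate lay below pTRE, but the highest R109K replicate only just. Its changes were -0.66 ± 0.16 in WT (adjusted p = 0.00438), -0.18 ± 0.16 in R109K (adjusted p = 0.433) and -0.48 ± 0.16 in KK (adjusted p = 0.0277). LRRC75A measured 4.17, 4.45 and 6.02 CPM in the pTRE replicates, 23.4, 33.6 and 18.6 in WT, 14.4, 14.2 and 16.4 in R109K and 23.6, 21.7 and 20.2 in KK. LRRC75A rose more than 2-fold in each line (2.35, 1.61 and 2.16, all called), and the antisense to sense ratio differed from pTRE by -2.92, -1.73 and -2.55 (exact permutation p = 0.1 each). The pair shares 500 exon bases. BAIAP2-AS1 was lower in every E2F1 replicate than in pTRE, with changes under 2-fold of -0.55 in WT, -0.45 in R109K and -0.50 in KK (adjusted p = 0.00141, 0.00771 and 0.00267), and TTC28-AS1 changed by -0.34, 0.06 and -0.22.

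The E2F1 lines were then compared directly, to ask whether the arginine changes altered the antisense response. None of the 225 was called between any of them by edgeR, nor by DESeq2. R109K against WT had 0.0962% of all tested genes higher and 0.247% lower, KK against WT 0% higher and 0.00602% lower, and R109K against KK 0.0421% higher and 0.0481% lower. At an unadjusted p under 0.05, 34 antisense genes passed in R109K against WT (15.1%, where 22.3% of all genes did), 16 in KK against WT (7.11%, against 8.51%) and 28 in R109K against KK (12.4%, against 12.4%). The lowest adjusted p values belonged to PSMD6-AS2 in R109K against WT (log2 fold change -0.96 ± 0.26, adjusted p = 0.0554) and CD27-AS1 in R109K against KK (0.81 ± 0.19, adjusted p = 0.0513). In KK against WT the lowest adjusted p was 0.574. Several antisense genes shared that value, A2M-AS1 (0.65 ± 0.24) among them. The lower R109K levels of ST3GAL6-AS1 (-0.39 ± 0.27, adjusted p = 0.391) and EPB41L4A-AS2 (-0.62 ± 0.32, adjusted p = 0.249) against WT, and the higher ones of TMPO-AS1 (0.57 ± 0.16, adjusted p = 0.0623) and RAMP2-AS1 (0.35 ± 0.16, adjusted p = 0.227), did not pass.

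Leaving out WT replicate 2 changed which genes were called in WT more than how many. Without it, 18 antisense genes were called higher and 6 lower, where 7.09% and 3.8% of all tested genes were. Calls in both analyses numbered 21, with 8 only in the full set and 3 only without the replicate. The 8 were PROSER2-AS1, NEXN-AS1, DNAJC9-AS1, KDM4A-AS1, EPHA1-AS1, RPARP-AS1, GAS6-AS1 and ZBED5-AS1. The 3 were CD27-AS1, TSPEAR-AS1 and FRMD6-AS1, all lower than pTRE. FRMD6-AS1, named here after its values were seen, measured 9.13, 6.12 and 6.43 CPM in pTRE and 2.92, 16.5 and 3.11 in WT, so that its change of -0.03 became -1.26. The median change of the 225 moved from 0.02 to -0.15, and that of all genes from 0.00 to -0.03. The rises of ST3GAL6-AS1 (3.72), EPB41L4A-AS2 (3.25), FZD10-AS1 (2.52), DPP10-AS1 (2.36), H1FX-AS1 (1.94) and EP300-AS1 (1.94) and the fall of MEIS1-AS3 (-1.82) stood without it.

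**Figure D4:**
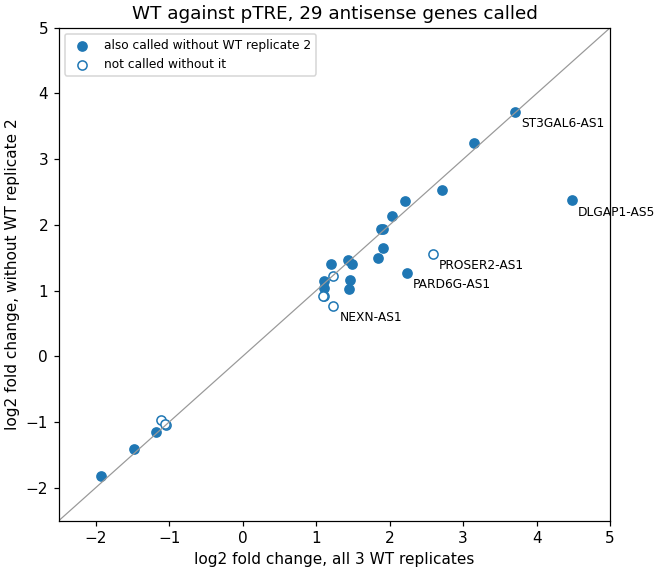
Log2 fold change of WT against pTRE with all 3 WT replicates (horizontal axis) and without WT replicate 2 (vertical axis) for the 29 antisense genes called in WT, filled where still called and open where not, with the line of equal values. DLGAP1-AS5, PROSER2-AS1 and PARD6G-AS1 lie furthest below the line, and ST3GAL6-AS1 lies on it.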

How the data were processed

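Poly(A) RNA from 4 U2OS lines was sequenced with 3 biological replicates each. Per the labels and the study's methods, the authors trimmed reads with TrimGalore 0.4.3 and aligned them to hg19 with STAR 2.5.1. The methods name the aligner as the source of the read counts tested there, and raw counts per gene were deposited. The gene annotation and the strand setting of the counting were not given in the sources used here. Summary rows that name no gene were kept out of library sizes and tests, and reads outside genes were 23.6 to 58.7% of a library.

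All 12 libraries were fitted together with edgeR 4.0.16 (R 4.3.3): filterByExpr, TMM scaling, 1 coefficient per line and quasi-likelihood F tests, with Benjamini-Hochberg adjustment over the 16625 genes tested. The thresholds of the study were used, an adjusted p under 0.01 and a change over 2-fold. A standard error is the log2 fold change divided by the square root of F. CPM were scaled with TMM, and errors of levels are SD. The script was tested on simulated data. Single-value tests are exact two-sided permutation tests of the log2 ratio of CPM plus 0.5. Precision follows depth: 11500537 to 31040903 reads fell on genes per library, and 114 of the 225 antisense genes averaged under 100 reads.

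Pairs were arranged with GENCODE v44 lifted to GRCh37 (22717 of 25369 symbols matched), and promoter sequences are from RefSeq on GRCh38.p14, with no coordinates converted between builds. Named genes were E2F1, up to 8 rises and 6 falls per line by fold change among called genes whose replicates did not overlap with pTRE, the listed genes, the 5 most abundant and the sense genes of all these. Other genes were named to account for a count after their values were seen. The members and lists were chosen with earlier results of these data known. Alternatives were DESeq2 1.42.0, other scalings and filters, other thresholds, a replicate block and leaving out each replicate. Values of a few genes that these rules name are not reported here.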

Additional observations from a re-analysis of the deposited data

Results flagged for a closer look

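Reads outside genes made up 58.7% of the second WT replicate, far above the highest pTRE share of 28.3%, and 29.6% of the third KK replicate, slightly above it. These reads belong to no gene row and entered no comparison. The 225 antisense genes took 0.252% of the gene reads in the second WT replicate, against 0.207 to 0.222% elsewhere. The part of these reads in the antisense values was not tested.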

How the results depend on the processing

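The WT, KK and R109K comparisons with pTRE called 29, 25 and 17 antisense genes and 7, 7 and 6 pairs in 1 direction. A test against a 2-fold change (glmTreat) called 8, 6 and 5 genes and 0, 1 and 0 pairs. Raising the minimum mean count to 100, which drops 114 of the 225 antisense genes, gave 10, 14 and 8 genes and 3 pairs in each line. DESeq2 called 32, 26 and 18 genes. Shares of all tested genes are not given in this section, so its counts show only how the calls of antisense genes moved. Leaving out each replicate in turn gave 19 to 34 genes and 4 to 8 pairs in WT, 19 to 25 and 5 to 7 in KK, and 13 to 17 and 2 to 5 in R109K. Without pTRE replicate 2 or 3, WT had 19 genes each time and R109K 2 pairs. Without pTRE replicate 3, WT had 4 pairs. Without R109K replicate 2 or 3, R109K had 3 pairs. Between the E2F1 lines the counts stayed at 0, except that 1 gene, DLGAP1-AS5, was called in R109K against WT without WT replicate 3, which makes a range of 0 to 1 (log2 fold change -3.40). DLGAP1-AS5 met the count rule only through lines where it was higher, so this is a description, with no p. That fit keeps WT replicate 2, where DLGAP1-AS5 stood at 12.8 CPM, against a mean of 1.09 in WT replicates 1 and 3. The causes were not tested.

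With the replicate number as a replicate block, 28, 25 and 16 genes and 7, 7 and 5 pairs were called in WT, KK and R109K, and 0 between the E2F1 lines. E2F1 changed by 4.28, 3.83 and 3.64. Deviations from the group means correlated by 0.0436 on average between samples with the same number (-0.295 to 0.470, n = 18 pairs) and by -0.0235 between others (-0.383 to 0.314, n = 36). The ranges overlap, and whether samples with the same number were prepared together was not given in the sources used here.

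Signs reversed in small changes that were not called. Over the fits without 1 replicate, WT values ran from -0.0851 to 0.3595 for MCM3AP-AS1, -0.4378 to 0.1172 for TPT1-AS1, -0.0472 to 0.1032 for NNT-AS1 and -0.1717 to 0.1732 for NR2F2-AS1. KK values ran from -0.0781 to 0.2311 for DDX11-AS1, -0.1648 to 0.2176 for H1FX, -0.0705 to 0.1769 for EP300, -0.1373 to 0.1468 for TSPEAR and -0.0122 to 0.2411 for ZEB1. R109K values ran from -0.0940 to 0.0857 for MCM3AP-AS1, -0.0470 to 0.2003 for DDX11-AS1, -0.0207 to 0.1993 for OIP5-AS1 and -0.1915 to 0.0550 for EP300. TSPEAR, near 0 in KK, also gave 0.0054 with DESeq2, 0.0103 with RLE scaling, 0.0068 with 10 counts in every sample, 0.0091 in the 6 samples alone and 0.0060 with the replicate block. With a pseudocount of 2 CPM the antisense to sense ratio reversed for EPB41L4A-AS2 in R109K (-0.0651), PARD6G-AS1 in KK (-0.1755) and APCDD1L-AS1 in R109K (-0.1344). Another 32 of the ratios moved by more than the spread between replicates at 2 CPM and 15 at 0.1 CPM. Of the other values of single genes, 2540 kept their direction and side of the threshold, 118 lost a call and 25 gained one.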

Other observations

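Another 494 antisense rows lay under the mean count of 30, of which 46 had no read in any library and 166 passed the filter of the test. In WT 8 of these were called higher and 3 lower, in KK 6 and 5, and in R109K 3 and 3. The shares of the 166 were 4.82% and 1.81%, 3.61% and 3.01%, and 1.81% and 1.81%, where 7.89% and 3.93%, 7.01% and 3.90%, and 4.64% and 2.56% of all tested genes were called. The genes called in all 3 lines, named after their values were seen, were HIF1A-AS1, LYPLAL1-AS1, VLDLR-AS1 and ZMIZ1-AS1. HIF1A-AS1 shares a locus name with HIF1A, the oxygen-responsive transcription factor, and had 0, 3 and 0 raw counts in pTRE against 15, 7 and 6 in WT, 8, 13 and 9 in R109K and 11, 8 and 7 in KK. LYPLAL1-AS1 had 3, 1 and 2 counts in pTRE against 18, 9 and 6 in WT, 15, 16 and 9 in R109K and 16, 16 and 15 in KK. VLDLR-AS1, named after a lipoprotein receptor gene, went down, from 44, 37 and 31 counts in pTRE to 9, 8 and 12 in WT, 9, 7 and 11 in R109K and 12, 13 and 16 in KK. ZMIZ1-AS1 went down from 33, 46 and 67 counts to 15, 4 and 15 in WT, 10, 14 and 17 in R109K and 11, 12 and 18 in KK. At these counts the size of a rise rests on a few pTRE reads, so no fold is given.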
